A study of Homo sapiens with 6 samples.

Results

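Expression of 40 genes of the lysosome was followed in H1975 cells before and after 72 h of osimertinib (Osi), an inhibitor of the EGFR tyrosine kinase. They are 9 proteases, 10 glycosidases, 3 sulfatases, 6 genes of lipid hydrolysis and cholesterol export, 5 membrane proteins, 5 subunits of the proton pump and 2 transcription factors of the MiT/TFE family, taken by symbol from a fixed list. All 40 were found among the 27216 rows of the RNA-sequencing table, and all 40 were among the 12656 rows tested. H1975 is an established human epithelial line from a lung cancer with mutant EGFR, and its genotype is labelled WT. The labels give DMEM with 10% serum as the medium, while the study's methods name a different medium with 10% serum. The 3 parental samples were labelled as 0 h of Osi and the 3 adapted samples as 72 h of Osi, at a labelled dose of 1000 nM. After treatment, apoptotic cells were removed with cold PBS, so the adapted samples hold only the cells that stayed attached, while the parental samples come from the cells as they were before treatment. The table names the parental columns for DMSO, and how long those cells were kept in DMSO is not stated, so Osi and time in culture cannot be told apart. The labels also describe RNase R digestion before library preparation and sequencing of circular RNA, whereas the study's methods speak only of total RNA. Whether this step was applied, and how far it shaped the levels and fold changes below, is not known. The methods speak of independent experiments for the study's data in general, but neither they nor the labels say for these 6 samples whether the 3 of a group were separate cultures, and the p-values measure only the spread between them, which may be technical.

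The unit is not named in the table, and the values were taken as log2(FPKM + 1), where FPKM is the fragment count of a gene scaled to the length of its transcript and to the number of fragments mapped in that sample. On the linear scale the samples had total values of 375342 to 387753, and the depth in reads is unknown. Parental samples correlated pairwise at r = 0.997 across all rows, adapted replicates 2 and 3 at 0.996, and adapted replicate 1 with each of those at 0.991. Of 6 epithelial markers, KRT7, KRT8, KRT18, KRT19, CDH1 and EPCAM, the summed FPKM was 3710, 3740 and 3740 in parental and 3490, 3790 and 3700 in adapted samples. Within this sum KRT7 rose by 1.07 (limma, adjusted p = 0.000219), KRT19 fell by 0.75 (adjusted p = 0.000474), KRT18 fell by 0.57 (adjusted p = 0.00427) and KRT8 fell by 0.28 (adjusted p = 0.0477, a call lost in 8 of the alternatives), while CDH1 and EPCAM did not pass the test. The 5 leukocyte and macrophage markers summed to between 1.47 and 1.61 FPKM in parental and between 0.435 and 1.04 in adapted samples, with CD3E listed at 0 in all 6 samples and PTPRC and CD163 at 0 in the parental ones. The 4 fibroblast markers had a higher sum in adapted cells, between 3.04 and 3.15 FPKM against between 7.61 and 9.19, with COL1A1 past the threshold (log2 fold change 1.12, limma adjusted p = 7.8e-05), while COL1A2 and DCN were at or below 0.11 on the log2 scale. The 3 endothelial markers summed to between 1.13 and 1.86 FPKM in parental and between 1.42 and 3.47 in adapted samples, in which PECAM1 had a mean of 1.35 FPKM in parental and 0.0634 FPKM in adapted samples and CDH5 one of 0.156 and 2.39 FPKM, each below the filter and with no overlap between groups. Against all rows, 56.9% passed the test of adapted against parental cells (limma, Benjamini-Hochberg adjusted p under 0.05), 30.7% as higher and 26.2% as lower in adapted cells, so the counts below are read against a background in which most rows changed.

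The lysosome is the acidic compartment in which cells break down proteins, glycans, lipids and whole organelles delivered by endocytosis and autophagy. A proton pump, the V-ATPase, keeps the interior acidic by moving protons through a membrane sector, V0, at the cost of ATP split by a cytosolic sector, V1. Soluble hydrolases do the digestion, heavily glycosylated membrane proteins line the inner face of the membrane, and channels and transporters release the products, iron among them. The transcription factors TFEB and TFE3 bind an E-box (CACGTG) that is repeated near the start of many lysosomal genes in a longer form, called the CLEAR element, and their activity is known to be set largely by phosphorylation and movement into the nucleus, which mRNA levels do not report.

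RefSeq promoter windows of GRCh38.p14, from 250 bases before to 50 bases after each transcription start, were matched by symbol for 29 of the 40 genes. The E-box letters CACGTG, which read the same on both strands, were found in the windows of 9 of these 29 genes (31.0%), against 12.8% of 9334 tested genes and 8.77% of all 27305 genes with a window. The form flanked by T and A, TCACGTGA, which contains the E-box, was found in 5 of 29 (17.2%), in LAMP1, CTSA, GAA, MCOLN1 and ATP6V0D1, against 2.38% of tested genes and 1.18% of all genes. The 10-base consensus GTCACGTGAC was found in GAA and MCOLN1 (6.9% of the 29), against 0.964% of tested genes and 0.421% of all genes. All 9 genes whose windows held the E-box were called higher in adapted cells (median log2 fold change 0.51), as were 13 of the 20 without it (median 0.48, with 2 called lower). Of 104 genes with a window in the wider lysosome-related set described below, 28.8% held the E-box. The flanked form was found in 12.5% of them and the 10-base form in 6.73%. These matches describe the letters of the window and are not evidence of binding. The windows of the 4 genes that changed most among those with the flanked E-box are given because their transcripts are described below. Each is read 5′ to 3′ on the strand of its gene, with TCACGTGA in capitals. LAMP1 lies on the plus strand at chr13:113296989-113297288 and holds 2 copies, the first beginning 29 bases before the start. CTSA is on the plus strand at chr20:45891085-45891384, with 1 copy at 26 bases before the start. MCOLN1 is on the plus strand at chr19:7522374-7522673, with 2 copies, the first at 42 bases before the start. ATP6V0D1 is on the minus strand at chr16:67481108-67481407, with 1 copy at 60 bases before the start.
LAMP1: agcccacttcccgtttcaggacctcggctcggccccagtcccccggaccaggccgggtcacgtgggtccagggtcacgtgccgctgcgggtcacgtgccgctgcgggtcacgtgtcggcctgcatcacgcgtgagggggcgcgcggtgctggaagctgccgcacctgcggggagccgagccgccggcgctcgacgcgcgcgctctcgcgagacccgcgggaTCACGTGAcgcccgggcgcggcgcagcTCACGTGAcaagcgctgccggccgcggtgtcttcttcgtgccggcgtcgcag
CTSA: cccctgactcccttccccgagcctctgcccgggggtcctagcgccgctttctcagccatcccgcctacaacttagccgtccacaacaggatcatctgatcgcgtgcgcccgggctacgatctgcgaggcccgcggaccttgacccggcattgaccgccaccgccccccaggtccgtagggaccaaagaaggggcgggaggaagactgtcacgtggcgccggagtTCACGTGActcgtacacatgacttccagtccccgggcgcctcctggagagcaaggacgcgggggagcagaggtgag
MCOLN1: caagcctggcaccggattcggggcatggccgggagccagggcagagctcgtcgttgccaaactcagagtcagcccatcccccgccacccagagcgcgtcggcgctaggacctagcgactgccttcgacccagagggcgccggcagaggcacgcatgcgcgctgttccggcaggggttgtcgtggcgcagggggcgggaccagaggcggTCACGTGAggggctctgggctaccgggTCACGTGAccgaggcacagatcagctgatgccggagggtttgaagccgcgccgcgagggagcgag
ATP6V0D1: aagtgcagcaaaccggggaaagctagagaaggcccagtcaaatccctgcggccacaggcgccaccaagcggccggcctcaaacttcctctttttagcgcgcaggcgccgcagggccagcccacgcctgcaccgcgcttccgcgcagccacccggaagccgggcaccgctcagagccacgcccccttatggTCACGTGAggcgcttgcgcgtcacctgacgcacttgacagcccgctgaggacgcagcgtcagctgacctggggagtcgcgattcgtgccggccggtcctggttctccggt

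Of the 40 lysosomal genes, 30 (75.0%) were higher in adapted cells and 2 (5.0%), the protease CTSC and the transcription factor TFEB, were lower, against the 30.7% and 26.2% of all tested rows. The other 8 did not pass the test: CTSL, CTSS, GLA, GUSB, NAGLU, NPC1, ATP6V1A and TFE3. The median log2 fold change of the 40 genes was 0.56, and that of all tested rows was 0.028. Groups did not overlap for 30 genes in the higher direction and for 3 in the lower direction, CTSC, TFEB and NPC1, while this was so for 35.7% and 30.6% of all tested rows, 66.3% in either direction. A rise of at least 0.5 on the log2 scale past the threshold was seen for 22 genes, against 16.3% of tested rows. For any 1 gene, an exact permutation test of 3 against 3 samples could not give a p below 0.1, so calls rest on limma, which shares its estimate of the spread across rows. In such bulk samples, more RNA of a gene per cell and more cells of a kind that expresses it cannot be told apart, and only attached cells were kept after Osi.

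**Figure D1:**
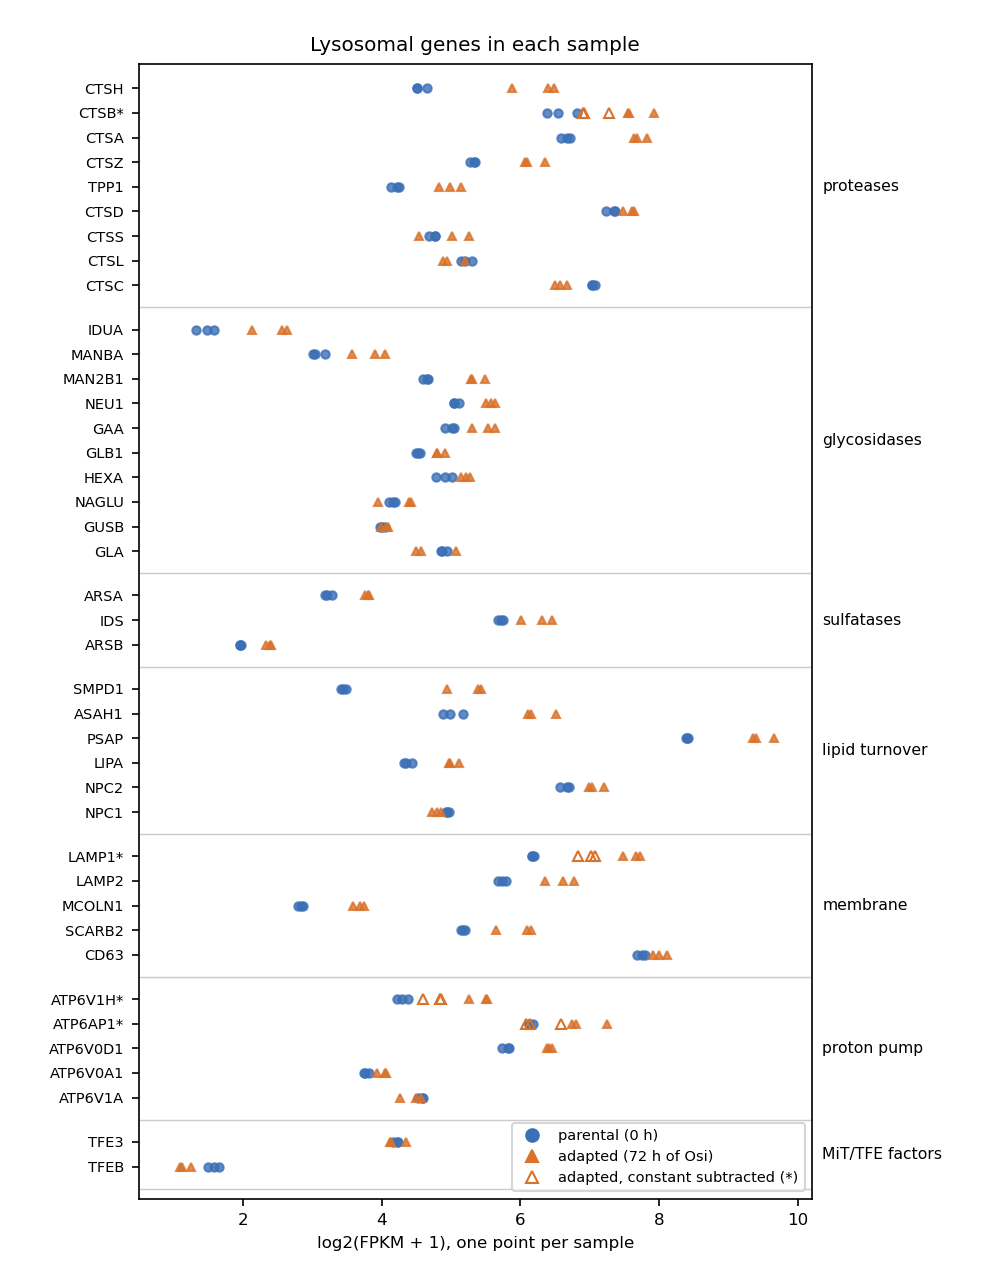
Values of the 40 lysosomal genes in each of the 6 samples, as log2(FPKM + 1) on the horizontal axis, with genes grouped by role and ordered by fold change within a role. Circles are parental and filled triangles adapted samples. Open triangles show the adapted values of the 4 starred genes after subtraction of a constant. The 3 adapted samples lie above the 3 parental ones for 30 genes and below them for CTSC, TFEB and NPC1.

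For 4 of the genes the table holds values of a different form in adapted samples. Undoing the log2 and removing the added 1 returned 27069 rows to values of 6 decimals, but in 147 rows the values of 1 group did not return to such numbers until a constant was subtracted on the log2 scale. Among tested rows this held for 1.11%, and for 0.924% with the constant in the adapted samples. CTSB and LAMP1 carried a constant of 0.65 and ATP6V1H and ATP6AP1 one of 0.66, in each case in the adapted samples. Their values are given below as deposited and again with the constant subtracted, which is not taken to recover the original data. Among the 36 genes without a constant, 26 were called higher and the median log2 fold change was 0.50. The 22 genes with a rise of at least 0.5 included these 4 as deposited. With the constant subtracted, CTSB (0.44), ATP6V1H (0.47) and ATP6AP1 (0.13) were below 0.5, while LAMP1 (0.80) was not. Adapted replicate 1 was the adapted sample nearest to the parental mean for 24 of the 40 genes, against 48.0% of tested rows, and the median of the 40 genes over the parental mean was 0.46, 0.58 and 0.59 in adapted replicates 1, 2 and 3.

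Lysosomal proteases, most of them cathepsins, digest delivered proteins to peptides and amino acids. Of 9, 6 were higher in adapted cells, CTSC was lower and CTSL and CTSS did not pass the test. The median log2 fold change of the 9 was 0.78 as deposited, 0.52 over the 8 without a constant and 0.44 with the constant of CTSB subtracted. Their summed level was 604, 656 and 618 FPKM in parental samples and 879, 940 and 1000 FPKM in adapted samples, a ratio of means of 1.5. CTSH, an aminopeptidase of the papain family (chr15:78921058-78945046 in RefSeq, GRCh38.p14), showed the largest change among them. Its log2 values were 4.66, 4.51 and 4.51 in parental and 5.88, 6.40 and 6.49 in adapted samples, a rise of 1.69 ± 0.16 (SE; limma, adjusted p = 0.000118). The lowest adapted sample stood more than 1 log2 unit over the highest parental sample, and the mean level went from 22.7 to 76.8 FPKM. CTSA, a carboxypeptidase that also protects beta-galactosidase and the sialidase NEU1 in a complex, measured 6.67, 6.72 and 6.59 before and 7.64, 7.68 and 7.83 after Osi (log2 fold change 1.06 ± 0.07, limma adjusted p = 3.76e-05). The groups were separate, and CTSA moved from rank 5 to rank 3 among the 40 genes by mean FPKM. Exons of CTSA overlap those of PLTP and NEURL2 on the opposite strand, and whether the counting used strand is not stated. CTSZ, a carboxypeptidase, had log2 values of 5.27, 5.34 and 5.33 in parental and 6.09, 6.07 and 6.36 in adapted samples (0.86 ± 0.09, limma adjusted p = 0.000175). TPP1, which removes tripeptides from the amino end of proteins, had 4.22, 4.25 and 4.14 against 4.83, 4.98 and 5.15 (0.78 ± 0.09, limma adjusted p = 0.000299). For both, every adapted sample was above every parental one.

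CTSB, an abundant cysteine protease with both endopeptidase and dipeptidase activity, was one of the genes with a constant. As deposited it had log2 values of 6.39, 6.82 and 6.55 in parental and 7.55, 7.57 and 7.93 in adapted samples, a rise of 1.09 ± 0.14 (limma, adjusted p = 0.000547). With 0.65 subtracted the adapted values were 6.90, 6.92 and 7.28, still above all parental samples, and the log2 fold change was 0.44 (limma, adjusted p = 0.0301). CTSD, the main aspartic protease of the lysosome, went from 7.31 ± 0.07 to 7.58 ± 0.09 (SD, n = 3 each; log2 fold change 0.26, limma adjusted p = 0.0175). This call was lost without parental replicate 1 (adjusted p = 0.0776), parental replicate 2 (0.0513) or adapted replicate 2 (0.05). CTSC, also called dipeptidyl peptidase I and known for activating the serine proteases of immune cells, moved the other way. Its log2 values were 7.03, 7.07 and 7.03 in parental and 6.50, 6.67 and 6.57 in adapted samples, and it fell by 0.46 on the log2 scale (SE 0.06, limma adjusted p = 0.000805), from 131 to 94.8 FPKM and from rank 4 to rank 10. CTSL, a cysteine endopeptidase, had a log2 difference of -0.21 (limma, adjusted p = 0.0948), and CTSS, a cysteine protease best known from antigen-presenting cells, one of 0.20 (adjusted p = 0.335), neither past the threshold. Adapted replicate 1 decided both: without it the log2 fold change of CTSL was -0.31 (limma, adjusted p = 0.00374) and that of CTSS was 0.40 (adjusted p = 0.00421).

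Glycosidases and sulfatases remove sugars and sulfate groups from glycoproteins, glycolipids and glycosaminoglycans. Of the 10 glycosidases, 7 were higher in adapted cells and none was lower, with a median log2 fold change of 0.41, and the summed level was 210, 206 and 208 FPKM in parental and 272, 273 and 272 FPKM in adapted samples. IDUA, which cleaves iduronic acid from heparan and dermatan sulfate, had the largest change of the glycosidases and the lowest parental level of all the enzymes. It had log2 values of 1.58, 1.32 and 1.49 in parental and 2.57, 2.14 and 2.64 in adapted samples (0.99 ± 0.15, limma adjusted p = 0.00102), from a mean of 1.77 to 4.53 FPKM. IDUA shares exonic bases with SLC26A1 on the opposite strand, so reads of the 2 genes cannot be separated where strand was not used. MANBA, the beta-mannosidase, had values of 3.04, 3.18 and 3.01 against 3.57, 4.05 and 3.90 (0.77 ± 0.13, limma adjusted p = 0.00169). MAN2B1, the alpha-mannosidase of the same breakdown route, had 4.67, 4.60 and 4.65 against 5.29, 5.30 and 5.49 (0.72 ± 0.07, limma adjusted p = 0.000165). NEU1, the sialidase held by CTSA, had 5.11, 5.04 and 5.04 against 5.50, 5.63 and 5.58 (0.51 ± 0.06, limma adjusted p = 0.000391). The parental and adapted samples of these genes did not overlap.

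Smaller rises were found for GAA, which degrades glycogen (0.50, limma adjusted p = 0.00294, means 4.99 ± 0.06 and 5.49 ± 0.17, SD, n = 3 each), and for GLB1, the beta-galactosidase (0.32, adjusted p = 0.00313, means 4.52 ± 0.03 and 4.84 ± 0.06). HEXA, the alpha subunit of beta-hexosaminidase, rose from 4.91 ± 0.12 to 5.21 ± 0.06 (limma, adjusted p = 0.012), and this call was lost without parental replicate 2 (log2 fold change 0.24, adjusted p = 0.0506). The 3 glycosidases outside the threshold were GUSB, the beta-glucuronidase often used as a reference gene (log2 fold change 0.04, limma adjusted p = 0.591), NAGLU, which acts on heparan sulfate (0.10, adjusted p = 0.523), and GLA, the alpha-galactosidase (-0.18, adjusted p = 0.329). Single samples decided the last pair. Without adapted replicate 3, NAGLU was higher by 0.25 (limma, adjusted p = 0.0142), and without adapted replicate 1, the log2 fold change of GLA was -0.36 (adjusted p = 0.00097). GUSB has many pseudogene copies, so its level is uncertain.

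All 3 sulfatases were higher. ARSA, which removes sulfate from the myelin lipid sulfatide, had log2 values of 3.21, 3.19 and 3.28 in parental and 3.82, 3.76 and 3.81 in adapted samples (0.57 ± 0.06, limma adjusted p = 0.00023), a gap several times the spread within either group. IDS, the iduronate sulfatase, had 5.75, 5.68 and 5.72 against 6.01, 6.45 and 6.31 (0.54 ± 0.11, limma adjusted p = 0.00435), with adapted replicate 1 nearest to the parental samples. IDS has a near-identical pseudogene, so reads could be split between them. ARSB, which acts on dermatan and chondroitin sulfate, was at 1.96, 1.96 and 1.97 in parental and at 2.41, 2.33 and 2.39 in adapted samples (0.41, limma adjusted p = 0.00182).

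Sphingolipids and cholesteryl esters are broken down inside the lysosome, with saposins lifting lipids out of membranes for the enzymes and NPC2 and NPC1 passing free cholesterol out. Of these 6 genes, 5 were higher in adapted cells, with a median of 0.86 on the log2 scale. This group had the largest ratio of summed levels of the 7 roles, 1.93, from 539, 517 and 525 FPKM to 935, 1140 and 973 FPKM. SMPD1, the acid sphingomyelinase (chr11:6390474-6394996 in RefSeq, GRCh38.p14), which releases ceramide from sphingomyelin, had the largest fold change of all 40 genes. Its log2 values were 3.44, 3.42 and 3.49 in parental and 4.94, 5.39 and 5.43 in adapted samples, a rise of 1.80 ± 0.13 (limma, adjusted p = 4.33e-05). Mean SMPD1 went from 9.96 to 37.6 FPKM. ASAH1, the acid ceramidase, which acts on the product of SMPD1, had 5.17, 4.98 and 4.88 against 6.11, 6.52 and 6.15 (1.25 ± 0.13, limma adjusted p = 0.000175). PSAP, the precursor of the saposins, was the most abundant of the 40 transcripts in both groups, at a mean of 337 FPKM in parental and 711 FPKM in adapted samples. Its log2 values were 8.41, 8.39 and 8.40 and then 9.35, 9.65 and 9.40 (1.07 ± 0.09, limma adjusted p = 9.55e-05), and the 3 parental samples lay within 0.02 of each other. PSAP made up most of the summed level of this group, so the ratio of 1.93 rested largely on PSAP. LIPA, the acid lipase that frees cholesterol and fatty acids from esters and triglycerides, had 4.44, 4.36 and 4.33 against 4.97, 5.12 and 4.99 (0.65 ± 0.07, limma adjusted p = 0.000174). In each of these 4 genes the groups were apart. LIPA shares exonic bases with IFIT2, a gene of the interferon response, on the opposite strand.

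The 2 carriers of cholesterol differed. NPC2, the soluble one, rose by 0.42 (limma, adjusted p = 0.00256), with means of 6.65 ± 0.07 and 7.07 ± 0.11 (SD, n = 3 each). NPC1, the membrane protein that receives cholesterol from it, had 4.95 ± 0.02 in parental and 4.80 ± 0.06 in adapted samples (log2 fold change -0.15, limma adjusted p = 0.0612). All 3 adapted samples of NPC1 were below all 3 parental ones, and it passed the threshold without adapted replicate 1 (-0.18, limma adjusted p = 0.0155) and when samples were centred on their median (-0.17, adjusted p = 0.0378). The difference between the changes of NPC2 and NPC1 was not tested.

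All 5 membrane proteins were higher in adapted cells, with a median log2 fold change of 0.84, and their summed level was 389, 372 and 376 FPKM in parental and 559, 679 and 635 FPKM in adapted samples. LAMP1 and LAMP2 are the main glycoproteins of the lysosomal membrane. As deposited, LAMP1 had log2 values of 6.17, 6.20 and 6.17 in parental and 7.48, 7.73 and 7.67 in adapted samples (1.45 ± 0.08, limma adjusted p = 1.12e-05). With its constant of 0.65 subtracted, the adapted values were 6.83, 7.08 and 7.02 and the log2 fold change was 0.80 (limma, adjusted p = 0.000138), so LAMP1 was higher in adapted cells either way but the size of its rise depended on the constant. LAMP2, which carried no constant, had 5.79, 5.74 and 5.68 against 6.35, 6.78 and 6.61 (0.84 ± 0.11, limma adjusted p = 0.000546). SCARB2, also called LIMP2, a sorting receptor and membrane protein of the lysosome, had 5.18, 5.20 and 5.15 against 5.65, 6.16 and 6.10 (0.79 ± 0.13, limma adjusted p = 0.00165). In both, adapted replicate 1 was the lowest adapted sample and was still above every parental one. MCOLN1, the cation channel TRPML1, which releases calcium and iron from the lysosome, had the lowest level of the 5, at 2.84, 2.87 and 2.80 in parental and 3.59, 3.69 and 3.75 in adapted samples (0.84 ± 0.07, limma adjusted p = 7.69e-05). Exons of MCOLN1 overlap those of PNPLA6 on the same strand, so reads there could not be separated even where strand was used. CD63, a tetraspanin also found on exosomes and the most abundant of the 5, rose by 0.26 (limma, adjusted p = 0.0193), with means of 7.74 ± 0.06 and 8.01 ± 0.10 (SD, n = 3 each). The CD63 call was lost without parental replicate 2 (adjusted p = 0.0869) or parental replicate 3 (0.0641).

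**Figure D2:**
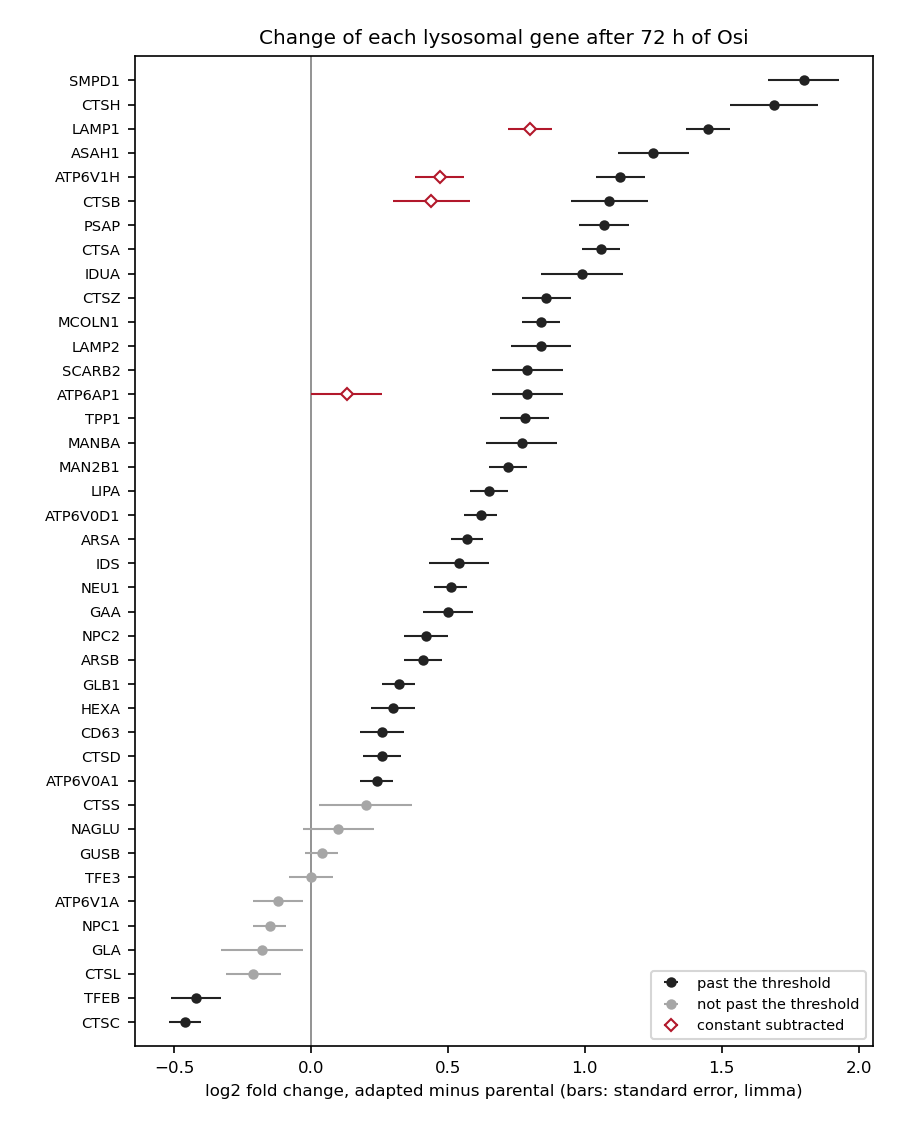
Log2 fold change of each lysosomal gene, adapted minus parental, on the horizontal axis, with bars of 1 standard error from limma. Black points passed the threshold and grey ones did not, and the 4 open diamonds are the values after subtraction of a constant. SMPD1 stands highest at 1.80 and CTSC lowest at -0.46, and the diamond of ATP6AP1 lies at 0.13.

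Of the 5 proton pump subunits on the list, 4 were higher as deposited, but 2 of these carried a constant. ATP6V0D1, which couples the rotating parts of the pump in the membrane sector, carried none and had log2 values of 5.82, 5.73 and 5.83 in parental and 6.45, 6.41 and 6.38 in adapted samples (0.62 ± 0.06, limma adjusted p = 0.000118). ATP6V1H, a regulatory subunit of the cytosolic sector, had 4.38, 4.23 and 4.29 against 5.52, 5.51 and 5.26 as deposited (1.13 ± 0.09, limma adjusted p = 6.01e-05). With 0.66 subtracted, its adapted values were 4.86, 4.85 and 4.60, and the log2 fold change was 0.47 (limma, adjusted p = 0.00332). ATP6AP1, an accessory protein needed to assemble the pump, had 6.12, 6.19 and 6.12 against 7.25, 6.74 and 6.80 as deposited (0.79 ± 0.13, limma adjusted p = 0.00181). With 0.66 subtracted its adapted values were 6.59, 6.08 and 6.14, the groups overlapped and the log2 fold change was 0.13 (limma, adjusted p = 0.439). The call of ATP6AP1 thus rested on the constant, whereas that of ATP6V1H did not. ATP6V0A1, a subunit of the proton channel, rose by 0.24 (limma, adjusted p = 0.016), with means of 3.78 ± 0.04 and 4.02 ± 0.07 (SD, n = 3 each), a call that was lost without parental replicate 1 (adjusted p = 0.0658) or parental replicate 3 (0.0638). ATP6V1A, the subunit that splits ATP, measured 4.57 ± 0.04 and 4.44 ± 0.16 (log2 fold change -0.12, limma adjusted p = 0.26).

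Of 19 further genes for subunits and accessory proteins of the pump, 14 passed the filter, 11 were called higher and none lower, with a median log2 fold change of 0.45. ATP6V0E1 rose most, by 1.50 (limma, adjusted p = 9.18e-06), and carried a constant of 0.66. Subtracting it left 0.84 (limma, adjusted p = 0.000111). ATP6V1D, part of the central stalk, came next and carried no constant, at 4.63, 4.60 and 4.62 in parental and 5.35, 5.70 and 5.68 in adapted samples (0.96, limma adjusted p = 0.000192). The other subunits with a constant of 0.66, ATP6V0B (0.83) and ATP6V1C1 (0.79), lost their calls once it was subtracted (0.17, limma adjusted p = 0.22, and 0.13, adjusted p = 0.119). These 2 were named after their values were seen. The isoforms ATP6V0A4, ATP6V0D2, ATP6V1B1, ATP6V1G2 and ATP6V1G3, which are typical of other tissues, were below 1 on the log2 scale in all 6 samples and were not tested.

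**Figure D3:**
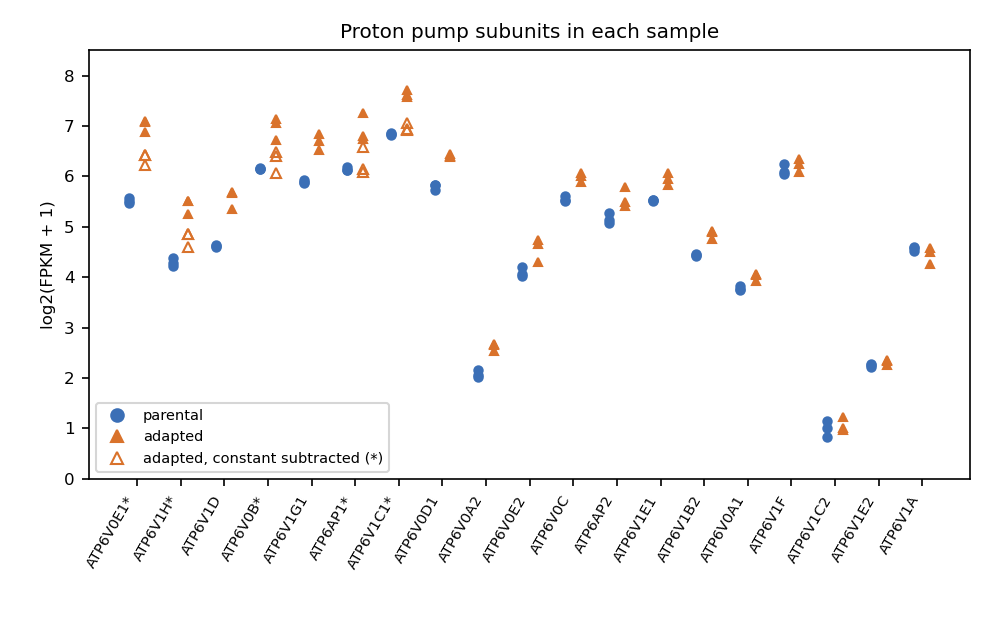
Proton pump subunits that passed the filter, with log2(FPKM + 1) on the vertical axis and 1 point per sample. Circles are parental, filled triangles adapted, and open triangles adapted values of starred genes after subtraction of a constant. The subunits are ordered by log2 fold change as deposited, from ATP6V0E1 at 1.50 to ATP6V1A at -0.12.

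Neither MiT/TFE factor on the list was higher in adapted cells. TFEB, the best known activator of lysosomal genes, had log2 values of 1.66, 1.50 and 1.58 in parental and 1.26, 1.12 and 1.10 in adapted samples. It fell by 0.42 on the log2 scale (SE 0.09, limma adjusted p = 0.00608), from a mean of 1.99 to 1.24 FPKM, with no overlap between groups. TFE3 was at 4.16, 4.23 and 4.24 in parental and 4.12, 4.14 and 4.36 in adapted samples, and its mean difference was -0.0023 with an SE of 0.08 (limma, adjusted p = 0.983), and at a mean of 17.5 FPKM in both groups it was the more abundant of the pair. MITF, a further member of the family, rose by 0.37 (limma, adjusted p = 0.00319), and TFEC, the last, was listed at 0 in all 6 samples. The MiT/TFE factors act as proteins in the nucleus, and nuclear protein was not analysed here.

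**Figure D4:**
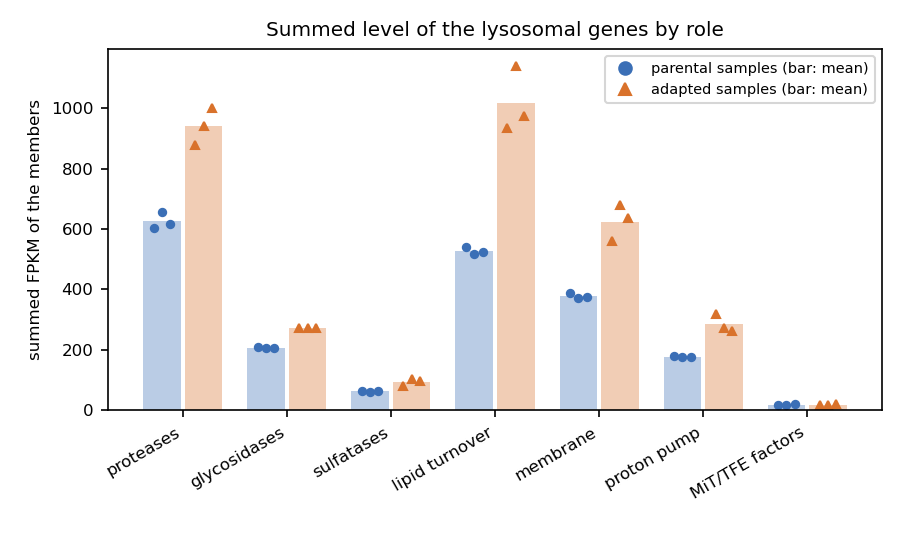
Summed FPKM of the lysosomal genes of each role in each sample on the vertical axis, from 0, with bars for the mean of 3 samples and points for the samples. The values are as deposited, so the sums of proteases, membrane proteins and proton pump include the genes with a constant. The 3 adapted samples lie above the 3 parental ones in every role but the MiT/TFE factors, whose ratio of means is 0.962.

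Summed over all 40 genes, the level was 2010, 2010 and 1990 FPKM in parental and 3060, 3430 and 3260 FPKM in adapted samples, a ratio of means of 1.62, and over the 36 genes without a constant the ratio was 1.54. PSAP alone accounted for the largest single share of both sums. By mean FPKM, PSAP, CD63, CTSD, CTSC and CTSA led in parental cells and PSAP, CD63, CTSA, CTSB and LAMP1 in adapted cells, the last 2 of which carried a constant. The summed level of the sulfatases had a ratio of 1.48 and that of the glycosidases one of 1.31.

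The wider set of 134 lysosome-related genes, written from general knowledge of the organelle and including the pump subunits above, was also mostly higher. Of 123 tested, 83 (67.5%) were higher and 9 (7.32%) lower in adapted cells, with a median log2 fold change of 0.43. Of the 118 without a constant, 78 were higher, with a median of 0.42. With the constants subtracted, 81 of the 123 were higher and 9 lower. Among 35 tested hydrolases and activators, 25 were higher and 1 lower. MAN2B2, a mannosidase, rose by 1.34 (limma, adjusted p = 0.000229) and CTSO, a cysteine protease, by 1.30 (adjusted p = 0.000141), while GGH, the gamma-glutamyl hydrolase that acts on folates, fell by 0.45 on the log2 scale (adjusted p = 0.0251), a call lost without parental replicate 2 or 3 or adapted replicate 2 or 3 (adjusted p up to 0.0841 over the alternatives).

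Among 29 tested membrane proteins and transporters, 21 were higher and 4 lower. SLC29A3, a nucleoside transporter, rose by 1.41 (limma, adjusted p = 0.000216), and CTNS, the cystine exporter, by 1.25 (adjusted p = 2.21e-05), as did SLC49A4 (adjusted p = 0.000271), listed under its older symbol DIRC2. In the same list, 2 genes fell far. LAPTM5 had log2 values of 1.98, 2.06 and 2.06 in parental and 0.07, 0.05 and 0.11 in adapted samples, and it fell by 1.96 (limma, adjusted p = 4.86e-06). CD68 had 6.27, 6.22 and 6.25 against 4.93, 3.96 and 4.31, and it fell by 1.85 (adjusted p = 0.000363). Both are known mainly from blood cells and macrophages, and the 5 leukocyte and macrophage markers, all at 1 or less on the log2 scale in all 6 samples, differed in direction. CD14 and CSF1R were lower in adapted samples on average, PTPRC was at 0 in parental and at 0.02, 0.08 and 0.04 in adapted samples, CD163 reached at most 0.01 and CD3E was listed at 0. The samples are cultures of an epithelial line, and the cause of these falls was not tested.

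Among 16 genes for sorting and maturation of lysosomal enzymes, 10 were higher and 1 lower. SORT1, the sorting receptor sortilin, rose by 1.47 (limma, adjusted p = 1.99e-05), and SUMF1, which activates all sulfatases by modifying their catalytic cysteine, rose by 1.19 (adjusted p = 3.11e-05). SUMF1 was at 3.61, 3.76 and 3.59 in parental and at 4.74, 4.95 and 4.83 in adapted samples. The transcripts of ARSA, ARSB and IDS were also higher, and a link between them and SUMF1 was not tested. GGA1, a coat adaptor, fell by 0.21 (limma, adjusted p = 0.0344), a call lost in every fit that left out 1 sample other than adapted replicate 1 (adjusted p up to 0.134 over the alternatives). Of 16 tested genes of nutrient sensing at the lysosome, 9 were higher and 1 lower. The 2 that rose most as deposited, RRAGC (1.20, limma adjusted p = 3.34e-05) and MTOR (0.86, adjusted p = 5e-05), carried a constant of 0.65. Their log2 fold changes with it subtracted were 0.55 (limma, adjusted p = 0.00122) and 0.21 (adjusted p = 0.0264). In this list RRAGB (0.78, limma adjusted p = 0.000266) and LAMTOR1 (0.62, adjusted p = 0.000104) rose most among genes without a constant. They were named after their values were seen. LAMTOR5, a subunit of the Ragulator complex that anchors RRAGC and MTOR on the lysosome, fell by 0.57 (limma, adjusted p = 0.00743). Of 13 genes for positioning and fusion, 7 were higher and 2 lower, led by VPS41 (0.82, limma adjusted p = 0.0004) and BORCS6 (0.52, adjusted p = 0.00222). VPS16, like VPS41 a subunit of the tethering complex HOPS, fell by 0.36 (limma, adjusted p = 0.00762), and RILP, an adaptor that links lysosomes to dynein, fell by 0.24 (adjusted p = 0.0217), a call lost without any 1 of the parental samples (adjusted p up to 0.0973 over the alternatives). The median of this list was 0.26.

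**Figure D5:**
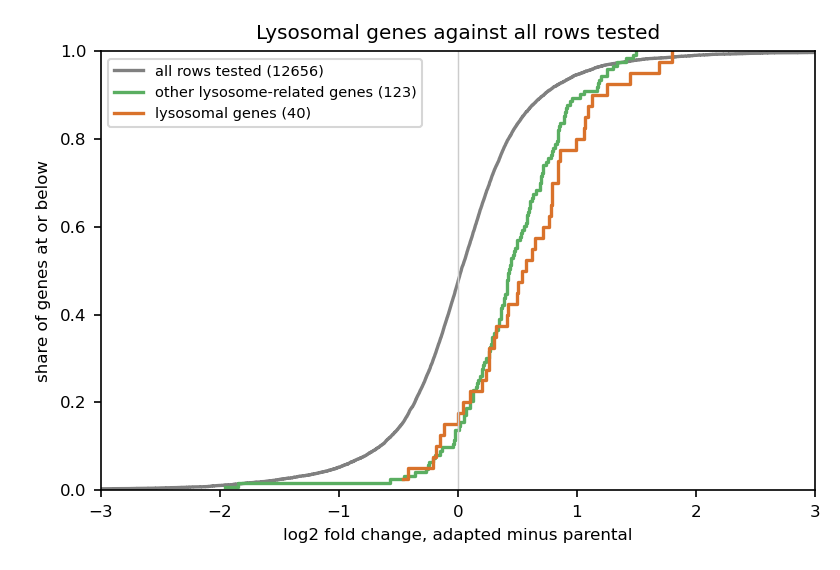
Share of genes at or below each log2 fold change, adapted minus parental, for the 40 lysosomal genes, the 123 other lysosome-related genes tested and all 12656 rows tested. The curves of both lysosomal sets lie to the right of the curve of all rows over most of the range, with medians of 0.56, 0.43 and 0.028, and the curve of the other lysosome-related genes reaches down to -1.96 (LAPTM5).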

How the data were processed

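RNA-sequencing of H1975 cells was analysed in 3 parental (0 h) and 3 adapted samples (72 h of Osi, 1000 nM). The authors deposited 1 table of log2 values per gene and sample, and its columns were matched to samples by group and replicate number (0 other per-sample columns). Their unit is not given. The base of the logarithm and the 1 added were inferred, because undoing both returned the values to 6-decimal numbers in 27069 of 27216 rows (tolerance 0.01 millionths), and the linear values were taken as FPKM from their sums. The submitters' processing notes name hg38, STAR, Bowtie2 2.1.0 and edgeR without their roles, and the study's methods name DESeq2, which needs counts. In 147 rows exactly 1 constant from 0.01 to 0.99, in steps of 0.01, returned a group's values to the grid: 0.66 (87 rows) or 0.65 (35 rows) in adapted samples, 0.2 (25 rows) in parental samples.

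The 12656 rows that averaged at least 1 on the log2 scale over all samples were tested in R 4.3.3 with limma 3.58.1, fitted by lmFit and moderated by eBayes with trend, two-sided and unpaired, with Benjamini-Hochberg adjustment over all of them and a threshold of 0.05. Fold changes on this scale understate changes of low genes. The procedure was tested on simulated data. As alternatives, results were recomputed with a pseudocount of 0.1, without the filter, with a mean of at least 3, quantile normalization, an equal sum per sample, centring on the median, no trend, robust hyperparameters, a replicate block, subtracting the constants or leaving out their rows, and leaving out each sample in turn. Same-numbered samples were not paired (correlations of their deviations -0.051, -0.031 and -0.020). No batch is given in the labels.

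The members and gene lists were chosen with earlier results of these data known, so their counts are no independent support. Each member is accounted for. Values in every sample are given for members past the threshold with no overlap and a log2 fold change of at least 0.5 in size, for those with a constant and for both transcription factors. In each further list, up to 2 genes that rose most and 2 that fell most are named. The values of 1 gene of these lists are not reported here. Genes sharing exonic bases (18 of 40 members in GENCODE v29) or with near-identical copies are uncertain. Use of strand in counting is not stated. Strand could not separate genes that overlap on the same strand, as MCOLN1 and PNPLA6 or GLB1 and TMPPE do. Motifs were searched with Python 3.11 in RefSeq windows.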

Additional observations from a re-analysis of the deposited data

How the results depend on the processing

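Limits first: the depth is unknown, the constants in 4 of the 40 genes have no stated origin, and adapted replicate 1 stood nearest to the parental samples for 24 of them. In each alternative 26 to 31 of the lysosomal genes were called higher and 1 to 5 lower, and the median over all rows stayed between 0.005 and 0.037. The 26 came with the rows of the constants left out, where 36 genes were tested. A filter of at least 3 left 37 genes tested, of which 28 were higher. With a mean of at least 3 as the filter, 4532 rows passed the threshold and 1 of the lysosomal genes was lower, since TFEB, IDUA and ARSB were then not tested. Subtracting the constants gave a median of 0.48 over the 40 genes, with 29 higher. Leaving out each sample in turn gave 27 to 31 genes higher and 2 to 5 lower (5 without adapted replicate 1, which added CTSL, GLA and NPC1), 71 to 91 of the wider set higher and 3 to 11 lower, 5778 to 8371 rows past the threshold, and a median of 0.53 to 0.60. Over all rows, 8371 passed without adapted replicate 1, and 5840, 5778 and 5866 without parental replicates 1, 2 and 3. Gains and losses of single genes in these fits are read beside this. The 9 lower calls of the wider set were 4 without parental replicate 1, 3 without parental replicate 2 or 3, and 5 without adapted replicate 2. With the replicate number as a block, which the samples' correlations do not support as a pairing, 29 genes were higher and 2 lower, 82 of the wider set were higher and 5 lower, and 6761 rows passed the threshold. CD63 lost its call there (adjusted p = 0.0565). TFE3 changed sign around 0, to 0.0066 with an equal sum per sample and to between 0.0068 and 0.041 in the 4 fits without parental replicate 2 or 3 or adapted replicate 1 or 2 (range over all 6 such fits -0.079 to 0.041). Of the other comparisons of single genes, 652 kept direction and call, 6 (5 genes) gained a call and 10 (5 genes) lost one. Apart from the filter and the subtraction, the causes were not tested.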

Other observations

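Genes that act on lysosomal enzymes or travel with them were looked at after the values of the others were seen, and they moved in both directions. Of the cystatins, which block papain-family cathepsins, CSTB, the cytosolic one, fell by 1.50 on the log2 scale, from 6.41, 6.39 and 6.50 in parental to 4.90, 4.89 and 5.01 in adapted samples (limma, adjusted p = 4.73e-06). CST6 had log2 values of 3.01, 3.12 and 3.09 against 4.65, 5.58 and 5.25 and rose by 2.09 (limma, adjusted p = 0.00018), and CST3, the secreted cystatin C, rose by 0.56 (adjusted p = 0.00061). CSTA was below the filter. Of the papain-family cathepsins among the 40 lysosomal genes, CTSH, CTSZ and CTSB (1.09 as deposited, 0.44 with its constant subtracted) were higher, CTSC was lower, and CTSL and CTSS did not pass the test.

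GPNMB, a glycoprotein of lysosomes and melanosomes, had log2 values of 1.11, 1.09 and 1.17 in parental and 3.58, 4.67 and 4.56 in adapted samples, a rise of 3.15 ± 0.27 (SE; limma, adjusted p = 8.41e-05), larger than that of any of the 40 lysosomal genes. GRN, the precursor of progranulin, which travels to the lysosome with prosaposin or sortilin, rose by 0.74 (limma, adjusted p = 0.000169). PSAP and SORT1 were also higher, and a link between them and GRN was not tested. LGALS3, a galectin that binds the inner face of damaged lysosomes, rose by 0.48 (limma, adjusted p = 0.0393), with adapted replicate 1 at 7.05 against 7.74 and 7.60 in the other adapted samples, and lost this call when any 1 of the other samples was left out (adjusted p up to 0.116 over the alternatives). LGALS8 (0.24, limma adjusted p = 0.126) and LGALS1 (0.01, adjusted p = 0.977) did not pass the test. Without adapted replicate 1 both passed it in opposite directions, LGALS8 as higher (0.36, adjusted p = 0.00641) and LGALS1 as lower (-0.43, adjusted p = 0.000968).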
